A study of Bos taurus with 27 samples.

Results

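The genes described here are the nuclear genes of respiratory complexes III, IV and V as the array of the rumen epithelium (RE) of Japanese Black beef cattle measured them. They were the probes whose gene name started with UQCR, CYC1, COX followed by a digit, ATP5 or ATPAF, and the mitochondrially encoded COX1, COX2 and COX3 were left out. In this way 51 genes on 52 probes were found among the 14952 gene names of the array. Of these, 9 belonged to complex III, 23 to complex IV and 18 to complex V. The remaining gene, ATP5SL, now carries the symbol DMAC2 and is no part of the ATP synthase, so it was counted among all members but left out of the complexes. COX6B1 had a pair of probes and the brighter one was used.

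Complex III (cytochrome bc1) passes electrons from ubiquinol to cytochrome c, and complex IV (cytochrome c oxidase) passes them on to oxygen. Both pump protons across the inner mitochondrial membrane, and complex V (ATP synthase) uses the proton gradient to make ATP. Most of their subunits are encoded in the nucleus, while the catalytic core of complex IV and a few other subunits are encoded by mitochondrial DNA. In the rumen wall the epithelium takes up and oxidizes volatile fatty acids, mainly butyrate, and this ATP drives its ion transport.

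The RE was sampled from the same 9 castrated and fistulated cattle at 3 fattening stages, named early, middle and late, when the animals were 14, 21 and 29 months old. This gave 27 one-color arrays and 9 per stage. All of the cattle received concentrate and rice straw at every stage, with a smaller share of concentrate at the early stage than later, so no group went without concentrate, and stage, diet and age cannot be told apart. The first period compares the middle with the early stage, the second period the late with the middle stage, and the total period the late with the early stage. Each level below is the log2 of the array's processed signal minus the median of that array, and each difference is a log2 fold change with its SE from the model over all 27 arrays. A probe's level depends on its own sequence, so each change was read between stages for 1 probe. Levels of different probes were compared only to pick the brighter COX6B1 probe and the brightest gene of each complex. They were added up only in the summed levels of markers.

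The middle-stage arrays were the dimmest. Their median signal was 8.22 to 28.7, against 35.2 to 48.6 at the early and 32.2 to 47.0 at the late stage. The share of probes that the scanner software called well above background was 48.8% to 71.6% at the middle stage, against 68.9% to 78.2% and 68.5% to 73.8%, and it was under 60% on 3 middle arrays (animals 4, 8 and 9). The arrays lay on 5 slides. Slide 1 held the early arrays of animals 1 to 8, and slide 2 held the early array of animal 9 with the middle arrays of animals 1 to 7. The other 3 slides held arrays of 1 stage each, so slide and stage cannot be told apart in the second and total periods. Scans were made on 4 days. All early arrays and the middle arrays of animals 1 to 7 were scanned on day 1, and the middle arrays of animals 8 and 9 on day 2. Late arrays were scanned on days 3 and 4, so scan day and stage cannot be told apart in those periods either. Of 14 markers of stratified epithelium 13 were on the array and 12 of them were well above background on at least 5 arrays of each stage, while KRT4 was so on no array. The summed level of these markers was 11.80 to 12.21 at the early, 9.81 to 12.20 at the middle and 12.01 to 12.35 at the late stage. The extraction text of the labels names other tissues than the RE.

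Probes of 4 genes that fell in the first period and of 4 that did not fall are shown as examples of the kinds of probe compared further on. They were picked for that contrast and are no evidence of it: ATP5F1 holds the motif described next and fell, and only 14 of the 31 members without it that were well above background on all arrays fell. The first set holds no poly(A) signal (AATAAA, searched on the strand of the probe only). Each is printed whole, 5′ to 3′, with its position on UMD 3.1.
UQCRC1, chr22:51851014-51851073, plus strand: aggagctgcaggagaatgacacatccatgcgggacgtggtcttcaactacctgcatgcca
ATP5C1, chr13:16176788-16176847, minus strand: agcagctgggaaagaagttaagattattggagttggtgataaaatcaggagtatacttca
ATP5B, chr5:57120965-57121024, plus strand: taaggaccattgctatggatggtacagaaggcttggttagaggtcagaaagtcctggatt
ATP5O, chr1:928202-929486, plus strand and split by an intron: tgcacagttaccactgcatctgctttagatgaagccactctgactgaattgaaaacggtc
The second set holds the motif, in capitals, and only the last 30 of the 60 bases of each probe are printed.
UQCRQ, chr7:46070259-46070318, plus strand: tcttgaagacacAATAAActtatgggcttc
ATP5I, chr6:108851279-108851338, minus strand: tgagcagtgtggctgAATAAAgttttctgt
COX6B1, chr18:46574257-46574316, plus strand: aactaatAATAAAtgctcgttggaaacgtg
CYC1, chr14:1930183-1930239, minus strand: tggaAATAAAttaagtttctcaacacacct

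In the first period 12 of the 51 genes rose and 17 fell (limma, adjusted *P* below 0.05 over all probes). Over all probes of the array 45.3% rose and 21.3% fell. Early and middle arrays lay almost wholly on different slides. With slide as a random block 9 members fell. With slide as a fixed block none did by limma (15 members changed in either direction at an unadjusted *P* below 0.05). Of all 15008 probes 1240 passed in that fit. Its first-period estimates hang on the single arrays of animals 8 and 9, whose middle arrays were both under 60%. The cause of a call lost there was not tested. Only 6 of the 12 rises, but all of the 17 falls, were among the 44 genes that were well above background on at least 5 of 9 arrays in each stage, called measured below. The 5 falls of 2-fold or more were those of UQCRC1, ATP5C1, ATPAF1, ATP5B and COX4I1, and no measured gene rose by that much. The median log2 fold change was -0.01 over all members and -0.08 over the measured ones, against 0.32 over all probes and 0.08 over the 6797 probes that cleared the background call on every array. Among those 6797 probes 34.9% rose and 26.9% fell, and among the 40 members that cleared it likewise 15% rose and 37.5% fell. This is bulk tissue, in which fewer cells of a type and less RNA per cell cannot be told apart.

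In the second period 25 genes rose and 13 fell, where 27% of all probes rose and 44.6% fell. Of the falls, 7 were of measured genes, and all 11 rises of 2-fold or more were of measured genes. With normexp background correction the medians over all members were -0.48 and 0.96 in the first and second periods, against 0.12 and -0.11 over all probes. Without that correction the second-period median was 0.22 over all members and 0.40 over the measured ones, against -0.27 over all probes and 0.10 over those 6797 probes. In this period 37.8% of those 6797 probes rose and 30.4% fell, beside 55% and 15% of the 40 members of that kind. In the total period 10 genes rose and 3 fell, beside 11.2% and 8.93% of all probes, and UQCRB alone changed by 2-fold or more. Of the 40 members well above background on all arrays 22.5% rose and 7.50% fell, beside 18.0% and 7.94% of all such probes. In the fit over all arrays 3019 of all 15008 probes passed in this period in either direction. With only the early and late arrays in the fit 4813 passed, and the member counts were 19 and 8. They were 6 and 6 with 75th percentile scaling (2929 probes passed) and 4 and 1 with normexp (1194 probes). With slide as a random block they were 0 and 0, where 250 of all 15008 probes passed and UQCRB had an adjusted *P* of 0.124. Without animal 6 there were 4 rises, where 2300 of all probes passed in either direction.

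The first and second periods share the middle arrays, so their changes are not independent of each other. A fall and then a rise, both past the test, were found for 16 genes, and a rise and then a fall for 8. Over the 40 members well above background on all arrays these were 35.0% and 7.50%, and over all probes of that kind 24.2% and 25.3%. In the first period alone 4 genes rose and 1 fell, and in the second alone 9 rose and 5 fell. No gene changed in the same direction in both periods. The 8 genes that passed in no period were CYC1, UQCRH, UQCR10, COX7B, COX8B, ATP5D, ATP5J and ATP5L.

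**Figure D1:**
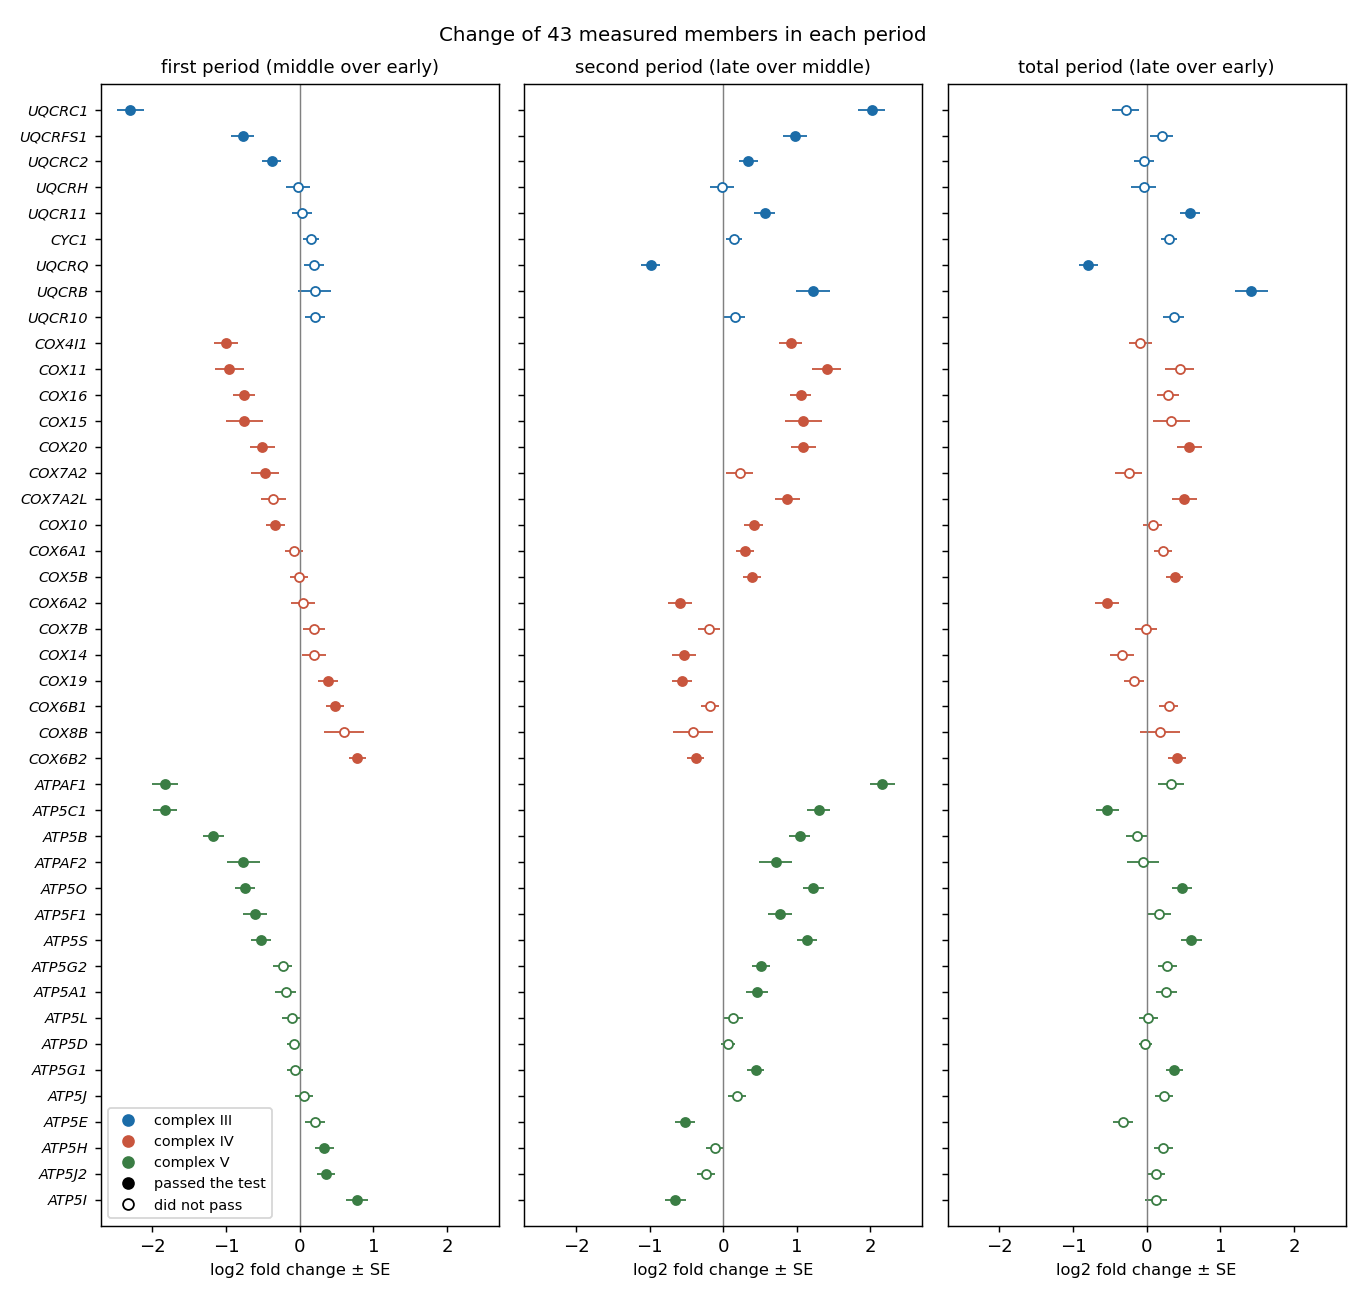
Log2 fold change with SE (x axis) of the 43 measured genes of complexes III, IV and V (y axis) in the first, second and total periods; filled points passed the test and open points did not. The points of UQCRC1, ATP5C1 and ATPAF1 lie furthest to the left in the first period, at -2.30, -1.83 and -1.83, and to the right of 0 in the second.

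In complex III 3 of 9 genes fell in the first period, beside 21.3% of all probes. They were UQCRFS1, the Rieske iron-sulfur protein, and the core proteins UQCRC1 and UQCRC2, which face the matrix and do not carry electrons. The level of UQCRC1 was 4.33 to 4.96 at the early stage (median 4.58), 0.97 to 2.99 at the middle stage (median 2.38) and 4.13 to 4.56 at the late stage (median 4.36). All 9 middle arrays thus lay below all early and all late arrays. UQCRC1 fell 4.93-fold in the first period (log2 fold change -2.30 ± 0.18, adjusted *P* = 2.29e-08) and rose 4.05-fold in the second (2.02 ± 0.18, adjusted *P* = 2.81e-08). The fall did not pass with slide fixed (-1.50 ± 0.71, adjusted *P* = 0.199). The late level was lower than the early one in 8 of 9 cattle, but the difference of -0.28 ± 0.18 did not pass the test (adjusted *P* = 0.307). It passed at the same value without the 3 arrays under 60% (adjusted *P* = 0.0344).

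UQCRFS1, a catalytic subunit that hands electrons to cytochrome c1, had levels of 7.93 to 8.40 (median 8.22), 6.09 to 7.91 (median 7.56) and 8.14 to 8.51 (median 8.43) at the early, middle and late stages. Each middle array was below each early and late array. It fell by 0.78 ± 0.16 in the first period and rose by 0.98 ± 0.16 in the second (adjusted *P* = 0.00038 and 2.88e-05). With slide fixed the first-period difference was -1.64 ± 0.66 and did not pass (adjusted *P* = 0.133). UQCRC2 moved in the same directions by less, -0.38 ± 0.14 and 0.34 ± 0.14, with overlapping stages. CYC1 encodes cytochrome c1, the other nuclear-encoded catalytic subunit. Its level was 9.13 to 9.77, 9.09 to 10.14 and 9.58 to 10.09 at the 3 stages. These ranges overlapped, and its differences of 0.15 ± 0.11, 0.15 ± 0.11 and 0.31 ± 0.11 in the first, second and total periods did not pass the test (adjusted *P* = 0.214, 0.212 and 0.0513).

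None of the 5 small subunits of complex III passed in the first period, where 45.3% of all probes rose and 21.3% fell. The changes of these subunits were -0.02 to 0.21. UQCRQ, which binds near the ubiquinone site, had levels of 7.38 to 7.98 (median 7.67), 7.05 to 8.46 (median 7.89) and 6.71 to 7.04 (median 6.96). All late arrays lay below all early and all middle arrays. UQCRQ fell by 0.98 ± 0.13 in the second period (adjusted *P* = 2.95e-06) and by 0.79 ± 0.13 in the total period (adjusted *P* = 0.000309), in 9 of 9 cattle each time. UQCRB went the other way in the total period. Its level was -2.50 to -1.09 (median -1.72) at the early, -2.51 to -0.42 (median -1.48) at the middle and -0.80 to 0.16 (median -0.36) at the late stage, and only 5 of the 9 middle arrays had it well above background. The late arrays were all above the early ones, a rise of 2.68-fold (1.42 ± 0.22, adjusted *P* = 0.000184). UQCR11 rose by 0.59 ± 0.14 in the total period in 9 of 9 cattle (adjusted *P* = 0.00498). UQCRH and UQCR10 did not change past the test in any period.

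**Figure D2:**
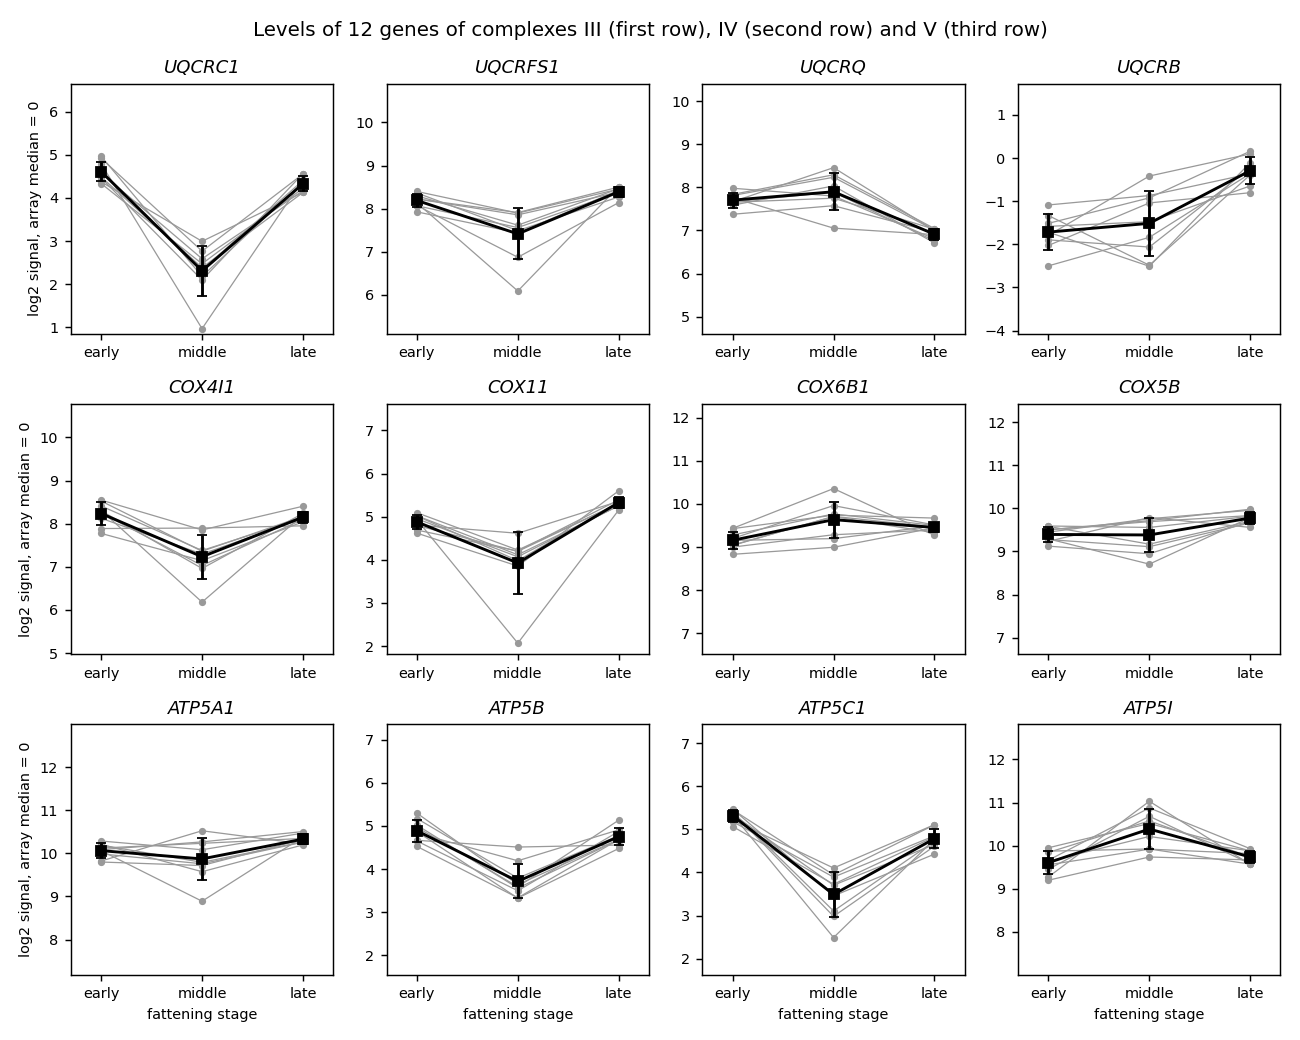
Level (y axis, log2 signal with the array median at 0; each panel spans the same range) at the early, middle and late stages (x axis) of 12 genes, with the genes of complexes III, IV and V in the upper, middle and lower rows. Gray lines join the 3 arrays of each of the 9 cattle and black squares are means with SD; UQCRC1, ATP5B and ATP5C1 are lowest at the middle stage in all 9 cattle, while ATP5I is highest there in all 9.

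Of the 15 structural subunits of complex IV, 10 were measured. In the first period 2 of these rose and 2 fell, and in the second 4 rose and 2 fell. COX4I1, the ubiquitous isoform of the subunit that adjusts the enzyme to ATP, had levels of 7.77 to 8.55 (median 8.30), 6.18 to 7.90 (median 7.29) and 7.95 to 8.40 (median 8.13). Middle and early arrays overlapped, and every late array was above every middle one. It fell 2.00-fold in the first period (-1.002 ± 0.159, adjusted *P* = 3.19e-05, lower in 8 of 9 cattle) and rose by 0.92 ± 0.16 in the second (adjusted *P* = 4.9e-05). The fall was lost with slide fixed (-0.09 ± 0.57). COX5B, a zinc-binding subunit, rose by 0.39 ± 0.12 in the second and by 0.38 ± 0.12 in the total period (adjusted *P* = 0.00603 and 0.0281, the latter lost in 9 of 22 settings), and its difference in the first period was -0.01 ± 0.12.

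Several complex IV subunits occur as isoform pairs, one of which is known from heart and skeletal muscle or testis. COX6A2, the muscle isoform, had levels of -0.75 to 0.30 (median -0.20), -0.71 to 0.69 (median -0.24) and -1.04 to -0.10 (median -0.78), with overlap throughout. It fell by 0.59 ± 0.16 in the second period and by 0.54 ± 0.16 in the total period (adjusted *P* = 0.00303 and 0.0225, the latter lost in 4 of 22 settings). With cyclic loess over the brighter probes its differences in the first and second periods were -0.65 and 0.16. COX6A1, its ubiquitous partner, rose by 0.30 ± 0.12 in the second period (adjusted *P* = 0.035), a call lost in 11 of 22 settings. In that period 7 of the 9 muscle markers on the array fell as well, where 44.6% of all probes fell. Only 4 of the 9 were measured, and MYH7 was above background on no array. The summed level of the 9 markers was 6.00 to 7.88, 5.61 to 9.12 and 6.17 to 6.92 at the early, middle and late stages, and their part in the fall of COX6A2 was not tested.

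COX6B2, the testis isoform, had levels of 0.39 to 1.06 (median 0.59), 1.03 to 1.82 (median 1.44) and 0.56 to 1.33 (median 1.02). It rose in 9 of 9 cattle in the first period, by 0.78 ± 0.12 (adjusted *P* = 2.15e-05), and fell by 0.37 ± 0.12 in the second (adjusted *P* = 0.00871). Over the total period it was 0.41 ± 0.12 higher (adjusted *P* = 0.0196, lost in 7 of 22 settings). COX6B1, the ubiquitous isoform, rose by 0.48 ± 0.12 in the first period in 9 of 9 cattle (adjusted *P* = 0.00238). With normexp background correction the change of COX6B1 in the first period was -0.07, and that of COX6B2 in the second was 0.00014. COX7A2 fell by 0.47 ± 0.19 in the first period (adjusted *P* = 0.0327, lost in 8 of 24 settings). COX7A2L, which joins complexes III and IV in supercomplexes, had a difference of -0.36 ± 0.17 in the first period (adjusted *P* = 0.0657) and rose by 0.87 ± 0.17 in the second and 0.51 ± 0.17 in the total period, in 9 of 9 cattle (adjusted *P* = 0.000144 and 0.0378). The total-period call of COX7A2L was lost in 14 of 22 alternative settings. COX8B varied widely among the cattle, from -0.77 to 1.93 at the early stage, and passed in no period.

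The assembly factors of complex IV insert heme and copper or guide the newly made core subunits. Of the 8, 7 were measured, and 5 of these (COX10, COX11, COX15, COX16 and COX20) fell in the first period and rose in the second. COX11, which delivers copper to COX1, had levels of 4.62 to 5.09 (median 4.93), 2.07 to 4.61 (median 4.12) and 5.15 to 5.60 (median 5.30). The 3 ranges did not overlap. It fell by 0.95 ± 0.20 in the first period (adjusted *P* = 0.000376) and rose 2.64-fold in the second (1.403 ± 0.197, adjusted *P* = 5.43e-06). The fall was lost with a fixed slide block (-0.27 ± 0.82). The late level was higher than the early one in 9 of 9 cattle, but the difference of 0.45 ± 0.20 did not pass (adjusted *P* = 0.119). With the 3 arrays under 60% left out it did pass, at the same value (adjusted *P* = 0.00104).

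COX16 likewise had 3 ranges with no overlap, at 3.82 to 4.17, 2.10 to 3.73 and 4.23 to 4.37, and changed by -0.76 ± 0.15 and 1.05 ± 0.15. COX15, with COX10 a maker of heme A, changed by -0.75 ± 0.25 and 1.08 ± 0.25, and COX10 itself by -0.33 ± 0.13 and 0.41 ± 0.13. COX20, a chaperone of COX2, changed by -0.51 ± 0.17 and 1.09 ± 0.17. It was higher at the late than at the early stage in 9 of 9 cattle (0.58 ± 0.17, adjusted *P* = 0.0209, lost in 6 of 22 settings). Its first-period call was lost with slide as a random block, without the 3 arrays under 60%, and with slide fixed, where the difference was 0.29 ± 0.64. COX19, a copper-handling protein of the intermembrane space, went the other way, with a rise of 0.39 ± 0.14 (adjusted *P* = 0.0184, 6 of 9 cattle) and a fall of 0.56 ± 0.14 (adjusted *P* = 0.00129, 9 of 9). With normexp these were -0.10 and 0.18. COX14 had a difference of 0.20 ± 0.16 in the first period and fell by 0.54 ± 0.16 in the second.

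In complex V, the catalytic F1 head is made of the alpha, beta, gamma, delta and epsilon subunits, encoded by ATP5A1, ATP5B, ATP5C1, ATP5D and ATP5E. ATP5C1, the rotating gamma subunit, had levels of 5.07 to 5.47 (median 5.35), 2.49 to 4.10 (median 3.70) and 4.43 to 5.11 (median 4.77). All middle arrays were below all others, and late and early arrays overlapped. It fell 3.55-fold in the first period (-1.83 ± 0.16, adjusted *P* = 5.04e-08) and rose 2.45-fold in the second (1.30 ± 0.16, adjusted *P* = 9.95e-07). With slide fixed the first-period difference was -0.73 ± 0.62 and did not pass. It was still lower at the late than at the early stage in 9 of 9 cattle, by 1.45-fold (-0.53 ± 0.16, adjusted *P* = 0.0215, lost in 5 of 22 settings).

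ATP5B, the catalytic beta subunit, had levels of 4.52 to 5.29 (median 4.87), 3.33 to 4.51 (median 3.59) and 4.48 to 5.13 (median 4.69). Its middle arrays were all below the early ones, and the lowest late array lay just under the highest middle one. It fell 2.26-fold in the first period (-1.17 ± 0.14, adjusted *P* = 2.49e-06) and rose 2.05-fold in the second (1.04 ± 0.14, adjusted *P* = 4.83e-06). The first-period call was lost with a fixed slide block (-0.09 ± 0.46). ATP5A1, the alpha subunit that forms a ring with it, ranged over 9.80 to 10.29, 8.89 to 10.52 and 10.20 to 10.51. Its difference in the first period was -0.19 ± 0.15 (adjusted *P* = 0.254), and it rose by 0.46 ± 0.15 in the second (adjusted *P* = 0.0089). ATP5D passed in no period, with differences of -0.08 ± 0.09 and 0.06 ± 0.09 in the first and second. ATP5E fell by 0.52 ± 0.14 in the second period (adjusted *P* = 0.00193), and its probe cleared the background call on only 5 of the 9 middle arrays.

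The peripheral stalk holds the head still while the rotor turns. ATP5O, the stalk's link to the head, had levels of 7.34 to 7.73 (median 7.58), 5.89 to 7.44 (median 6.93) and 7.90 to 8.23 (median 8.05), so that the late arrays lay above all others. It fell by 0.74 ± 0.14 in the first period (adjusted *P* = 0.000162) and rose by 1.22 ± 0.14 in the second (adjusted *P* = 5.12e-07). In the total period it rose by 0.48 ± 0.14 (adjusted *P* = 0.0207, lost in 5 of 22 settings). A fixed slide block turned its first-period difference to 0.55 ± 0.48. ATP5F1, the stalk's b subunit, fell by 0.61 ± 0.16 and rose by 0.77 ± 0.16. ATP5H rose by 0.34 ± 0.12 in the first period (adjusted *P* = 0.0231), and ATP5J passed in no period.

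None of the measured genes of the membrane part fell in the first period. ATP5I, the e subunit at the dimer interface, had levels of 9.20 to 9.95 (median 9.64), 9.74 to 11.03 (median 10.52) and 9.57 to 9.93 (median 9.74). Its ranges overlapped, but in 9 of 9 cattle the middle level was the highest of the 3. It rose by 0.78 ± 0.15 in the first period (adjusted *P* = 0.000177) and fell by 0.65 ± 0.15 in the second (adjusted *P* = 0.000694). ATP5J2, the f subunit, rose by 0.36 ± 0.12 in the first period (adjusted *P* = 0.0158). With normexp the change of ATP5I in the second period was 0.20, and those of ATP5J2 in the first and second were -0.25 and 0.56. ATP5G1 and ATP5G2 encode the c subunit of the rotor ring, each with its own import signal. They had differences of -0.06 ± 0.11 and -0.23 ± 0.13 in the first period and rose by 0.44 ± 0.11 and 0.51 ± 0.13 in the second (adjusted *P* = 0.00175 and 0.0014).

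The assembly factors ATPAF1 and ATPAF2 are chaperones of the beta and alpha subunits. ATPAF1 had levels of 2.33 to 3.00 (median 2.67), -0.17 to 1.29 (median 1.02) and 2.54 to 3.23 (median 2.98), with every middle array below all others. It fell 3.55-fold in the first period (-1.83 ± 0.17, adjusted *P* = 1.45e-07) and rose 4.47-fold in the second (2.16 ± 0.17, adjusted *P* = 6.42e-09). With slide as a fixed block the first-period fall was lost (-0.05 ± 0.54). ATPAF2 had levels of 0.85 to 1.38, -1.82 to 0.75 and 0.78 to 1.19 and changed by -0.76 ± 0.22 and 0.71 ± 0.22. ATP5S (now DMAC2L), also called coupling factor B, fell by 0.53 ± 0.14 and rose by 1.14 ± 0.14, and its late arrays were all above its early ones (0.61 ± 0.14, adjusted *P* = 0.00388). Its first-period fall was lost with slide as a random or a fixed block (-0.42 ± 0.21 and 0.01 ± 0.56). ATP5SL rose in the second and total periods, by 0.59 ± 0.11 and 0.58 ± 0.11, and not in the first (0.00 ± 0.11).

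The 7 genes not measured were COX4I2, COX5A, COX7A1, COX7B2, COX8A, COX18 and ATP5G3. COX5A, COX7A1, COX8A and ATP5G3 were well above background on no array, and COX7B2 only on 2 late arrays. For these 5 the fitted rise of the first period was 1.2 to 1.5, at signals that were not well above background in either stage, so no fold change is given. COX4I2, an isoform induced by low oxygen in other tissues, was well above background on 2 early, 4 middle and 0 late arrays, and no fold change is given for it either, since COX5A, COX7A1, COX8A and ATP5G3 had fitted falls of 1.24 to 1.76 in the second period at signals not well above background. COX18 was well above background on 8 early, 3 middle and 6 late arrays. Of the 8 members whose probe was designed on an EST record, 1 was well above background on all arrays, against 39 of the 43 other members. On the whole array 19.95% of such probes and 46.0% of the others were.

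The 3 complexes were then set beside each other within each animal, as the median change over their measured genes. In the first period these medians ran from -0.60 to 0.45 for complex III, from -0.68 to 0.55 for complex IV and from -0.64 to 0.22 for complex V, and they were below 0 in 5, 7 and 8 of the 9 cattle. The median of complex V was below that of complex III in 9 of 9 cattle, by 0.17 on average (SD 0.13), and below that of complex IV in 5 of 9. In the second period complexes III, IV and V rose in 7, 8 and 8 of 9 cattle, with ranges of -0.42 to 1.13, -0.38 to 1.06 and -0.20 to 0.92. Complex V was above complex III in 6 of 9 and above complex IV in 6 of 9. Over the total period the ranges were -0.09 to 0.50, -0.15 to 0.43 and -0.10 to 0.35. Over cattle, the first-period SD was 0.26 to 0.35 for the median of a complex and 0.11 to 0.15 for the difference between the medians of a pair of complexes, whose means were 0.05 to 0.17.

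With the unmeasured genes included, the median of complex IV was above that of complex V in 8 of 9 cattle in the first period and below it in 9 of 9 in the second. With the measured genes alone these were 5 and 6 of 9. No test was made of these medians, because the genes were chosen with results known.

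**Figure D3:**
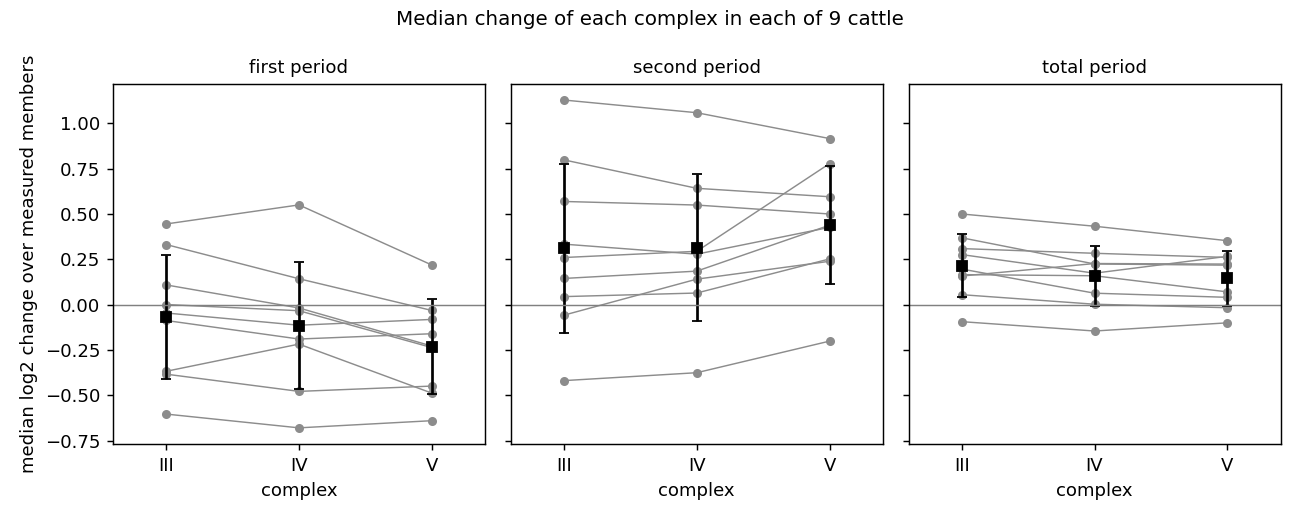
Median log2 change over the measured genes (y axis) of complexes III, IV and V (x axis) within each of the 9 cattle, in the first, second and total periods. Gray lines join the values of 1 animal and black squares are means with SD over cattle; in the first period the median of complex V is below that of complex III in 9 of 9 cattle.

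Among the members well above background on all arrays the changes differed by kind of probe. The AATAAA motif stood in the probes of 9 members (17.6% of 51, beside 9.51% of all 60-base probes): CYC1, UQCRQ, COX6A1, COX6B1, ATP5D, ATP5F1, ATP5I, ATP5J and ATP5L. In the first period 2 of these 9 rose and 1 fell, with a median of 0.06. Of the 31 members without it that were well above background on all arrays, 4 rose and 14 fell, with a median of -0.23. The same held in direction for the 6797 probes of that kind on the array, of which 14.4% of 971 with the motif and 29.0% of 5826 without it fell. Over all probes, dim ones included, 12.3% with the motif and 22.2% without it fell, while 45.3% and 45.2% rose. The medians there were 0.29 with the motif and 0.33 without it. In the second period the medians of the 9 and the 31 members were 0.13 and 0.46. Such a motif marks the end of a transcript only where it is used, and the part of probe position in the changes was not tested.

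**Figure D4:**
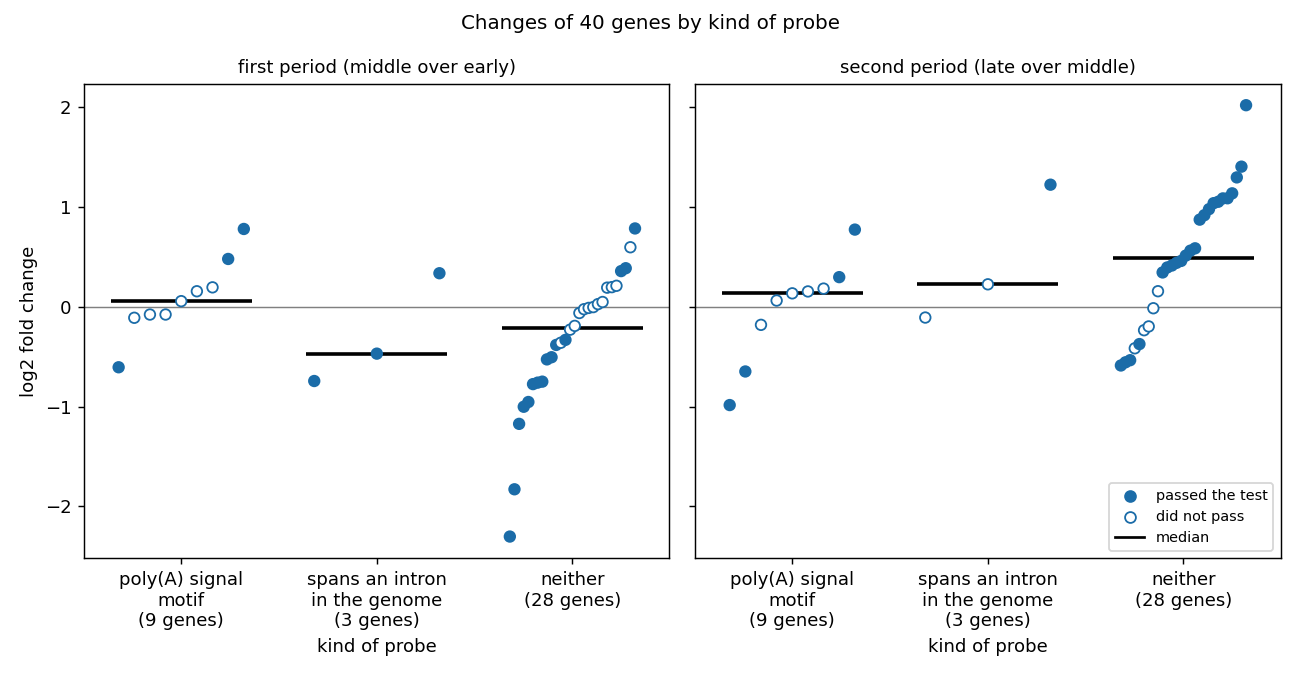
Log2 fold change (y axis) of the 40 genes well above background on all arrays by kind of probe (x axis), in the first and second periods; filled points passed the test, open points did not, and black lines are medians. The 9 genes with the poly(A) signal motif center on 0.06 in the first period, while the falls of 2-fold or more are all among the 28 genes whose probe has neither feature.

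COX6B1 gave 2 readings, and they disagreed. The probe used, which starts at base 420 of the transcript record and is shown above, rose in the first period. The second probe started at base 86, and the files place it on another chromosome, chr5:94363872-94363931, so the 2 probes may not report the same locus. It fell by 0.43 ± 0.12 in the first period (adjusted *P* = 0.00519) and rose by 0.55 ± 0.12 in the second, being well above background on all arrays. The change of the first probe minus that of the second was 0.90 (SD 0.57) in the first period and above 0 in 9 of 9 cattle. The probes thus changed in opposite directions there. They were compared after their values were seen.

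Slide 2 held both early and middle arrays, but 1 early array only. The middle arrays of animals 8 and 9 alone lay on slide 3. With slide as a fixed block the first-period difference therefore hangs on the single arrays of these animals. With slide as a fixed block the first period had 7 rises and 0 falls among the members by limma, and 15 members at an unadjusted *P* below 0.05. The median over members was 0.41, against 0.44 over all probes. ATP5I, which passed there, rose by 1.93 ± 0.52 (adjusted *P* = 0.0348). Within slide 2, 7 middle arrays stood against 1 early array without an animal term, so only differences are given. The differences there were -2.16 ± 0.59 for UQCRC1, -1.75 ± 0.55 for ATP5C1, -1.04 ± 0.41 for ATP5B, -1.51 ± 0.48 for ATPAF1 and 1.04 ± 0.49 for ATP5I. With slide as a random block 9 members fell in the first period, where 6832 of the 15008 probes passed in either direction. In the total period 0 rose and 0 fell, with 6 at an unadjusted *P* below 0.05, where 250 probes passed. Without the 3 arrays under 60%, 11 members rose and 17 fell in the first period, and UQCRC1 changed by -2.21 ± 0.11.

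The partners encoded by mitochondrial DNA moved in both directions. Of 5 measured (COX1 was not on the array under that name), COX2 and COX3 rose in the first period, by 0.75 ± 0.17 and 0.83 ± 0.17, and fell in the second, by 0.62 ± 0.17 and 0.64 ± 0.17. ATP6 rose by 0.41 ± 0.18 in the first period. ATP8 fell by 0.67 ± 0.28 and rose by 1.03 ± 0.28, and CYTB, the core of complex III, passed in no period. Cytochrome c (CYCS), which carries electrons between complexes III and IV, fell by 0.99 ± 0.16 in the first period and was still lower at the late stage, by 1.17 in the total period (adjusted *P* = 3.63e-05).

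Upstream of complex III, all 4 genes of complex II fell in the first period and 3 rose in the second. Of the 44 genes of complex I, 11 rose and 15 fell in the first period and 21 rose and 9 fell in the second, with medians of -0.03 and 0.37. The shares of all probes that rose and fell were 45.3% and 21.3% in the first period and 27% and 44.6% in the second. Among the carriers that exchange ADP, ATP and phosphate, SLC25A5 and SLC25A6 fell by 1.79 ± 0.20 and 2.55 ± 0.25 in the first period and rose by 1.76 ± 0.20 and 2.45 ± 0.25 in the second. SLC25A4 rose by 0.34 ± 0.11 in the first, and SLC25A3 passed in no period.

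Of 18 further assembly and regulation genes on the array, 7 rose and 5 fell in the first period, where 45.3% of all probes rose and 21.3% fell. The copper chaperones SCO1 and SCO2 moved in opposite directions, with a rise of 1.48 ± 0.17 and a fall of 1.36 ± 0.24. COA3, another complex IV factor, fell by 1.06 ± 0.19 and rose by 1.39 ± 0.19. Of 11 transcription regulators of respiratory genes, 3 rose and 2 fell in the first period, and 3 rose and 5 fell in the second. In the second period 27% of all probes rose and 44.6% fell. TFAM, which packages and transcribes mitochondrial DNA, rose by 0.38 ± 0.12 in the first period and fell by 0.35 ± 0.12 in the second. PPARGC1A, the best known coactivator of these genes, was well above background on no array.

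Markers of other cells moved across the stages too. The summed level of the 3 red blood cell genes was 5.28 to 6.08 at the early, 6.70 to 7.63 at the middle and 5.48 to 6.49 at the late stage, and HBA accounted for it, since HBB and ALAS2 were near background. Of the epithelial markers 3 rose and 6 fell in the first period, and 4 rose and 3 fell in the second. Among all probes 45.3% rose and 21.3% fell in the first period, and 27% and 44.6% in the second. The summed levels of the 6 fibroblast markers, 6.46 to 9.55, 6.49 to 10.00 and 6.14 to 8.66, and those of the 4 endothelial and 7 leukocyte markers overlapped between the stages. The part of these cell types in the changes of the 51 genes was not tested.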

How the data were processed

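Total RNA of the RE was labeled with Cy3 and hybridized to Agilent bovine arrays. Per the file headers, the authors' scanner files hold the intensity of each spot, background-subtracted by Feature Extraction (11.0.1.1 in the headers, 9.5 in the submitters' processing notes). A table of processed log2 values was deposited too. Set against the scanner files, its columns are log2 signals centered near the 75th percentile of each array. It was used as an alternative.

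Outlier spots were left out, spots of a probe were averaged on the log2 scale, and the array median was subtracted. limma 3.58.1 (R 4.3.3) fitted stage and animal on the 15008 probes of all 27 arrays. Adjusted *P* is by Benjamini-Hochberg over all probes. The animal is in the fit because the same cattle were sampled at each stage. Arrays were paired by the number that ends each sample title, and all statements within cattle rest on this reading. Residuals of arrays of the same animal correlated at 0.16 on average (-0.15 to 0.46 over 27 pairs). Those of different cattle at other stages correlated at -0.02 (-0.41 to 0.29 over 216 pairs). The number of arrays limits the precision.

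The members and gene lists were chosen with earlier results of these data known. Every member was counted. Named with values were the genes the study tabulates, the 2 largest rises and falls of each complex and period among measured genes, isoform pairs of complex IV, the catalytic subunits, the brightest gene of each complex at the early stage and genes not above background. Other genes were added for their role. A probe was taken to cross an intron where it spans more than 100 bases in the genome. Gene symbols were matched to RefSeq for all 51 members. Coordinates are the files' own, on UMD 3.1. No value was imputed.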

Additional observations from a re-analysis of the deposited data

Results flagged for a closer look

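Of 81 groups of 9 arrays (27 measured genes at 3 stages), 9 held 1 array that lay far from the others by Dixon's criterion, where chance gives about 1 in 20. The genes were read on the same arrays, so the groups are not independent and their number was not tested. In 4 of the 9 groups the outlying array was the middle array of animal 4, the dimmest of all arrays (median signal 8.22). Its level was the lowest for UQCRC1 (0.97, the next 2.10), COX11 (2.07, the next 3.85), COX7A2 (5.55, the next 6.86) and COX7A2L (4.45, the next 5.48). In the other 5 it was an array of animal 9. At the late stage its level was the lowest for ATP5J2 (4.73, the next 5.39), ATPAF1 (2.54, the next 2.92) and COX6B2 (0.56, the next 0.96). At the early stage it was the lowest for COX19 (4.75, the next 5.15) and the highest for COX6B2 (1.06, the next 0.70). These 2 arrays of animal 9 lay on other slides than the rest of their stage.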

How the results depend on the processing

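Of 1827 values of 27 genes under 24 settings, 125 lost the call, 59 gained it, 13 reversed and 1630 stayed on their side of the threshold, of which 37 that passed in neither fit changed sign. Of 49 gene and period pairs that passed, 12 kept call and direction throughout. For the first period the settings include the fit within slide 2, which held 1 early array and had little power. The cause of the lost, gained and reversed calls was not tested. In the first period the rises of members numbered 7 with quantile normalization, 6 with cyclic loess, 6 with dim probes left out and 7 with a fixed slide block. The falls numbered 9 with slide as a random block and 0 as a fixed block. Of all probes kept, 7169 passed in either direction with quantile normalization, 4400 with loess and 6364 with dim probes left out. They numbered 6832 with the random and 1240 with the fixed block, against 9985 in the fit of the Results. With the fixed block the medians were 0.41 (members), 0.37 (complex III) and 0.16 (complex V), against 0.44 over all probes. ATP5O, ATP5S and COX20 reversed there, to 0.55, 0.013 and 0.29. With loess the complex IV median was -0.33 and COX6A2 -0.65. With normexp the medians were -0.48 (members), -0.57, -0.41 and -0.64 (complexes III, IV and V), against 0.12 over all probes. ATP5J2, COX19 and COX6B1 reversed there, to -0.25, -0.10 and -0.068.

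In the second period the falls numbered 6 with loess and 7 with dim probes left out, and the rises 14 with the random block. Of all probes kept, 4786, 6898 and 7512 passed there in either direction, against 10736 in the fit of the Results. The complex IV median was 0.23 with loess and 0.30 with dim probes left out, against -0.20 over all 23 genes in the fit of the Results. COX6A2 reversed with loess, to 0.16. With normexp the medians were 0.96 (members), 1.03, 0.62 and 1.03 (complexes III, IV and V), against -0.11 over all probes. ATP5I, ATP5J2, COX19, COX6B1 and COX6B2 reversed there, to 0.20, 0.56, 0.18, 0.62 and 0.00014.

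In the total period rises and falls numbered 6 and 6 with 75th percentile scaling and with the deposited log2 table, 6 and 8 with loess, 4 and 1 with normexp, 0 and 0 with the random block, 22 and 8 with the methods' t-test, 19 and 8 with only those stages fitted, and 18 and 8 without the 3 dimmest arrays by share. Quantile normalization gave 6 rises. The complex III median was 0.026 with quantile normalization and -0.086 with loess, and that of complex V was 0.38 with normexp. The median of all probes kept in the first period ran from 0.0085 with dim probes left out to 0.44 with a fixed slide block, against 0.32.

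Leaving out 1 animal gave 10 to 13 rises and 14 to 19 falls in the first period, 23 to 26 and 12 to 14 in the second, and 4 (without animal 6; 6 without animal 1) to 12 and 1 (without animal 3) to 4 in the total period. The median of members ran from -0.08 to 0.06, 0.15 to 0.35 and 0.11 to 0.20, that of complex III from -0.08 to 0.10, 0.25 to 0.41 and 0.16 to 0.24, that of complex IV from 0.01 to 0.23, -0.33 to -0.15 and 0.05 to 0.12, and that of complex V from -0.24 to -0.08, 0.38 to 0.53 and 0.12 to 0.19. These medians are over all members, unmeasured ones included. With no animal left out, the second-period median of complex IV was -0.20 over all 23 genes and 0.30 over the 17 measured ones. Without the animal as a replicate block, members numbered 12 and 17, 25 and 14, and 10 and 3. Genes dim at the middle stage limit the measurement.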
